A study of Rattus norvegicus with 36 samples.

Results

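The 42 genes described here encode the enzymes of the urea cycle and of hepatic amino acid catabolism. All 42 were measured, out of 14217 genes on the array, each through the single probe set with the highest mean over the 36 arrays among those assigned to that gene alone. The livers came from male Harlan Sprague Dawley rats, 7 weeks old at the start, that received PBDE47 (2,2′,4,4′-tetrabromodiphenyl ether, a brominated flame retardant) by gavage in corn oil once a day for 5 days and were killed 1 day after the last dose. Each of the 6 groups held 6 animals: corn oil alone (vehicle), then 0.0485 mg/kg, 0.485 mg/kg, 4.85 mg/kg, 48.5 mg/kg and 485 mg/kg. Each animal gave 1 array of left lobe RNA. Corn oil and gavage volume (5 ml/kg) were shared by all groups, the vehicle group included. Values are log2 RMA values, and a change is the difference of group means, dose minus vehicle, given with a limma standard error (SE) and n = 6 animals per group. A gene was called when its limma p, adjusted by the Benjamini-Hochberg method over 31042 probe sets, was under 0.05, and only called genes are said to rise or fall.

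Amino acids that the liver does not keep as protein are stripped of their nitrogen, their carbon skeletons enter glucose synthesis or the citric acid cycle, and the nitrogen leaves as urea or, for the ammonia that escapes, as glutamine. The steps are spread along the liver lobule. Hepatocytes near the portal vein (periportal) carry glutaminase, histidase, serine dehydratase and most of the urea cycle, and a thin layer around the central vein (pericentral) carries glutamine synthetase together with ornithine aminotransferase. Methionine breakdown supplies the methyl donor S-adenosylmethionine and, through cystathionine, the cysteine used for glutathione and taurine. Many of these enzymes are under the control of glucagon, glucocorticoids and feeding.

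The tissue matched its label, with the 8 measured hepatocyte markers, among them Alb and Apob, at list means of 14.16 to 14.22 at 485 mg/kg and 14.32 to 14.37 in vehicle livers, and skeletal muscle markers at 3.48 to 3.68 and 3.51 to 3.59. Array medians, which the normalization makes alike, lay between 5.31 and 5.38. Precision is limited by having 6 arrays a group. The 3′ minus 5′ signal of the actin control ran from 1.06 to 1.33 at 485 mg/kg and from 1.13 to 1.46 in vehicle arrays. Of the 36 arrays, replicate 6 at 4.85 mg/kg had the lowest median correlation with its own group (0.991, against 0.992 to 0.996 for the others), and leaving it out called the same number of members, 0, at that dose. The labels name no culture, litter or scan batch, so a batch that followed dose could not be told apart from dose. Each animal gave 1 array, so p-values measure a spread in which animal and array variation are not separated. In bulk liver RNA, fewer cells of a type and less RNA per cell cannot be told apart.

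More members fell than rose at the 2 highest doses. At 485 mg/kg 20 of 42 members fell and 4 rose, against 7.22% and 7.81% of all probe sets, so that 57.1% of members were called beside 15.0% of all probe sets. The 48.5 mg/kg dose had 8 falls and 1 rise, against 0.821% and 2.57% of all probe sets and 3.39% for both directions. The median change of the members was -0.19 at 485 mg/kg and -0.08 at 48.5 mg/kg, while the median over 14217 genes was -0.01 and -0.0008. Brighter probe sets were called more often, and 34 of the 42 members have a mean above 10. Of the 1779 probe sets with such a mean, 18.4% fell and 25.4% rose at 485 mg/kg. That is 43.8% called in all, the nearer background for the 57.1% of members. The corresponding shares at 48.5 mg/kg were 3.8% and 8.3%, with 12.1% called in all, beside 21.4% of members. At 4.85, 0.485 and 0.0485 mg/kg limma called 0 members, with 0.0193%, 0% and 0% of all probe sets called. An unadjusted limma p under 0.05 was found for 6, 3 and 5 of the 42 members at these doses. The same held for 2006, 1381 and 1519 of the 31042 probe sets.

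**Figure D1:**
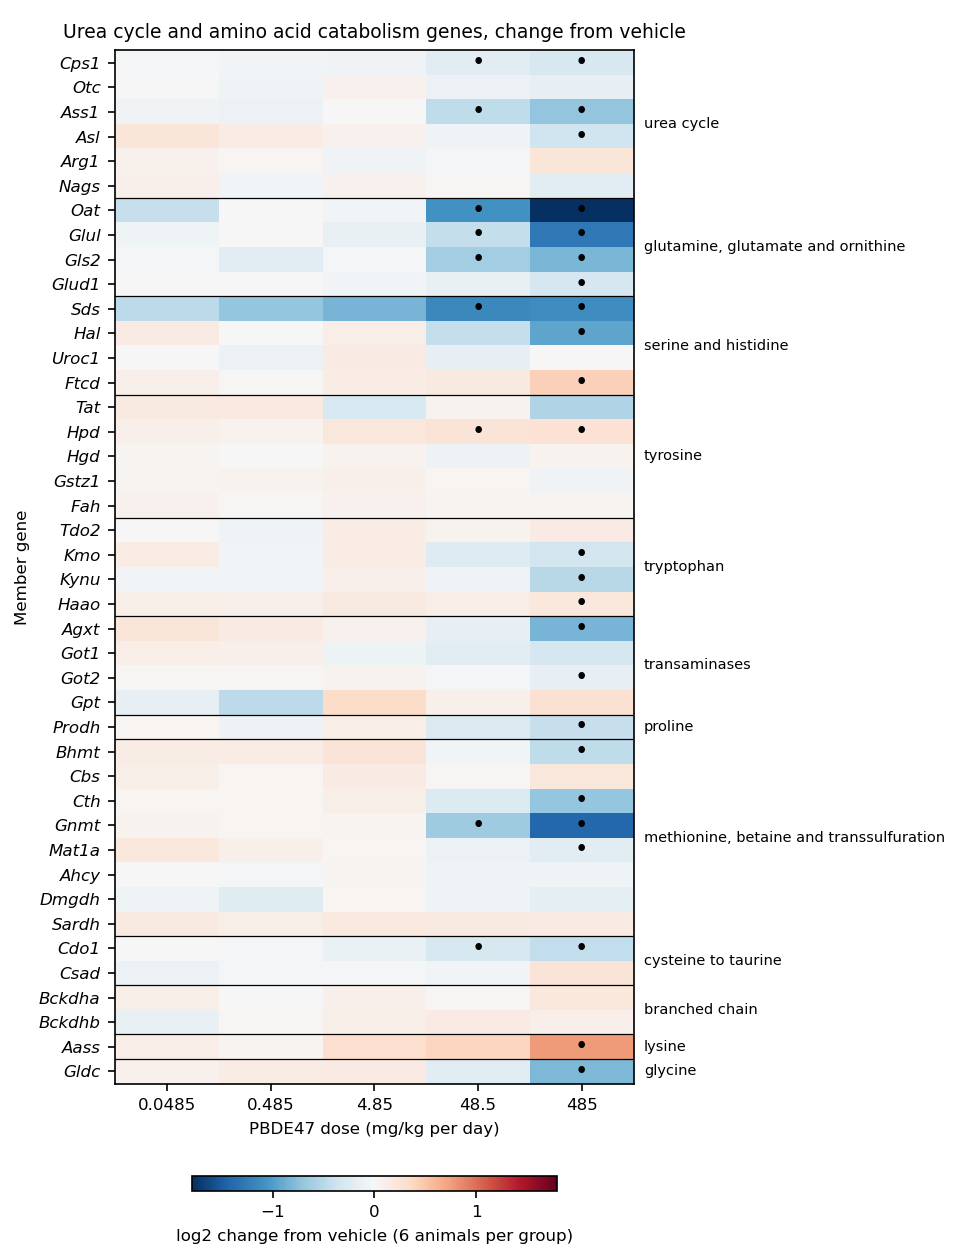
Log2 change from vehicle of the 42 members (rows, grouped by role) at the 5 doses in mg/kg (columns, low to high), blue for lower and red for higher, with a dot where limma called the change. Dots appear in the 2 right-hand columns only, 9 at 48.5 and 24 at 485 mg/kg, and the darkest cell is Oat at 485 mg/kg (-1.80).

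**Figure D2:**
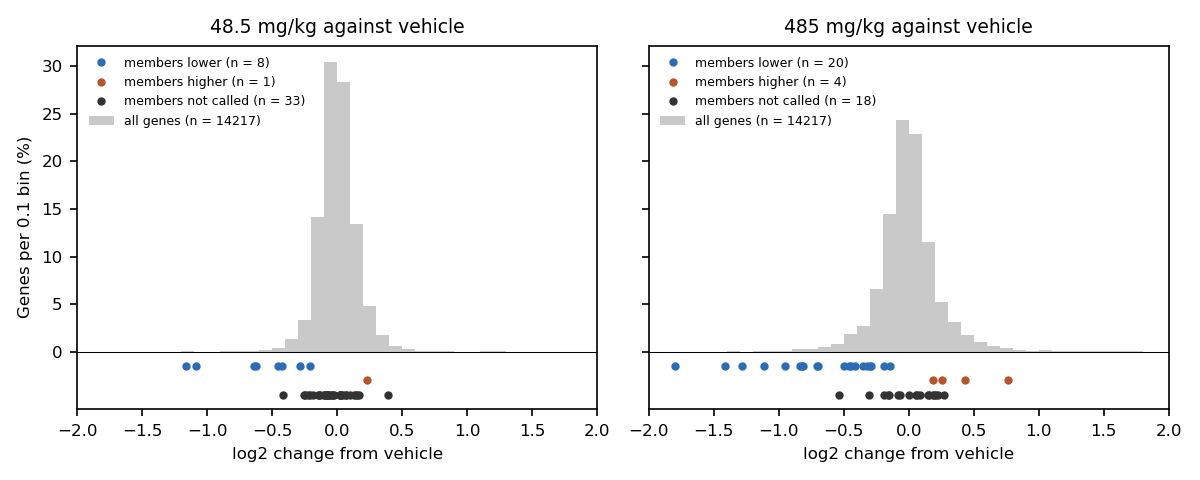
Distribution of the log2 change from vehicle over 14217 genes (grey bars, percent of genes per bin of 0.1, drawn between -2 and 2) at 48.5 mg/kg (left) and 485 mg/kg (right). The points under each histogram are the 42 members, split into lower, higher and not called, and the members called lower extend to -1.16 and -1.80.

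Changes ran from -1.80 for Oat to 0.76 for Aass at 485 mg/kg and from -1.16 for Sds to 0.39 for Aass at 48.5 mg/kg. The largest falls at 485 mg/kg were those of Oat (3.47-fold lower), Gnmt (2.66-fold), Glul (2.43-fold), Sds (2.16-fold) and Hal (1.94-fold). They belong to different routes: ornithine, methyl groups, glutamine, serine and histidine. All 6 animals at 485 mg/kg lay below the range of the 6 vehicle animals for 16 members and above it for 4. For 48.5 mg/kg this held for 3 members below (Ass1, Gls2 and Cdo1) and 0 above. Such counts were not made over all probe sets, so they describe the members only and have no background to be set against. Animals differed most, within their groups, for Tat (pooled SD 0.61), Sds (0.56), Gpt (0.35) and Oat (0.35), and the median pooled SD over the members was 0.15.

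The sequences shown are the 250 bases before the annotated start of the 3 members with the largest falls called at both high doses, among those in the RefSeq promoter table (34 of 42 members), and of the largest rise. They are given 5′ to 3′ on the strand of the gene, in GRCr8 coordinates, with motif matches in capitals. Glul has 2 annotated starts and so 2 sequences.
Oat (chr1:196797755-196798004, minus strand): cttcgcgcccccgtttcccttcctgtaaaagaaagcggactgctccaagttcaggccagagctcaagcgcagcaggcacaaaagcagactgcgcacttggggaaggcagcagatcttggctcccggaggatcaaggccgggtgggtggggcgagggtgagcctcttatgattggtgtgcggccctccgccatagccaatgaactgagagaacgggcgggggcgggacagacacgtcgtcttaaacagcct
Gnmt (chr9:21752032-21752281, plus strand): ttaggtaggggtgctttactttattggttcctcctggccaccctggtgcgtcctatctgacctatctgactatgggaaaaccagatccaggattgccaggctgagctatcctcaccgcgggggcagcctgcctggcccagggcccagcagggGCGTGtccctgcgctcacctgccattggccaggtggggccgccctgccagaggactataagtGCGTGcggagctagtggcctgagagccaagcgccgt
Glul, first start (chr13:68519250-68519499, plus strand): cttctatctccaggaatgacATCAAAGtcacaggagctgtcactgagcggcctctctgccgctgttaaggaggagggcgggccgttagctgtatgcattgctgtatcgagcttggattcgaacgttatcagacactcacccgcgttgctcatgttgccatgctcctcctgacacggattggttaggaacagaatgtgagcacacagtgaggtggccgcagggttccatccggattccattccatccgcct
Glul, second start (chr13:68575816-68576065, plus strand): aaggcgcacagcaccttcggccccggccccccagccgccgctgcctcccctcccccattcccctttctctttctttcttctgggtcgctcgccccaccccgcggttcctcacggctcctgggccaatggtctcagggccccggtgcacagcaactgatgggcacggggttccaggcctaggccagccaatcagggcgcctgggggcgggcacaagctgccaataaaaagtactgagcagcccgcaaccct
Aass (chr4:52628812-52629061, minus strand): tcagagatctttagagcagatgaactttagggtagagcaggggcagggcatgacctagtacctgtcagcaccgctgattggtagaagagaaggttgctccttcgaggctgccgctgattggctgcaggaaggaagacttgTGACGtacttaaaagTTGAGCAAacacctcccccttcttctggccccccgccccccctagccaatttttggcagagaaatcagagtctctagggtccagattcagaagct
Both strands were searched for GCGTG (the core bound by the aryl hydrocarbon receptor, AhR), TGACG (the core of the cAMP response element), CTTTGAT (TCF and LEF factors), TTGCNNAA (C/EBP factors), CAAAGTCCA (HNF4A) and TATAAA (the TATA box), and no match overlapped another. Gnmt held GCGTG at 98 and at 36 bases before its start, a motif found in 25.9% of 33469 such windows. CTTTGAT stood on the opposite strand 230 bases before the first Glul start, against 3.15% of windows. In the Aass window TGACG lay 110 bases before the start (18.2% of windows) and TTGCNNAA, on the opposite strand, 95 bases before it (9.22%). These letters were not found in the Oat window or before the second Glul start. CAAAGTCCA and TATAAA, found in 0.338% and 12.9% of windows, were in none of the 5 sequences. A match describes letters and is no evidence of binding.

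Among the 6 urea cycle members, 3 fell at 485 mg/kg (Ass1, Asl and Cps1) and 2 at 48.5 mg/kg (Ass1 and Cps1), and Otc, Nags and Arg1 were called at neither dose. Ass1, argininosuccinate synthetase, joins citrulline to aspartate. Its lowest, median and highest values were 12.74, 12.82 and 12.94 in vehicle, 12.66, 12.76 and 12.85 at 0.0485 mg/kg, and 12.54, 12.74 and 12.86 at 0.485 mg/kg. They were 12.76, 12.82 and 12.86 at 4.85 mg/kg, 12.23, 12.39 and 12.52 at 48.5 mg/kg, and 11.91, 12.16 and 12.23 at 485 mg/kg. The vehicle group and the 3 lower doses overlapped throughout, and both high doses lay wholly below vehicle, with 485 also wholly below 48.5 mg/kg. The fall was -0.70 ± 0.06 SE (adjusted p = 7.52e-12) at 485 mg/kg, and it was -0.45 ± 0.06 SE (adjusted p = 1.34e-06) at 48.5 mg/kg.

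Cps1, carbamoyl phosphate synthetase, fixes ammonia in the mitochondrion as the entry step of the cycle. In the order lowest, median and highest, Cps1 stood at 13.44, 13.58 and 13.65 in vehicle, 13.44, 13.55 and 13.65 at 0.0485 mg/kg, and 13.46, 13.55 and 13.57 at 0.485 mg/kg. The upper doses gave 13.44, 13.51 and 13.58 at 4.85 mg/kg, 13.25, 13.37 and 13.48 at 48.5 mg/kg, and 13.22, 13.28 and 13.36 at 485 mg/kg. All 485 mg/kg animals lay below vehicle, while those at 48.5 mg/kg overlapped with it. The changes were -0.29 ± 0.05 SE (adjusted p = 2.49e-05) at 485 mg/kg and -0.21 ± 0.05 SE (adjusted p = 0.0105) at 48.5 mg/kg, and the 48.5 mg/kg call was lost on the 12 arrays of the 2 groups alone (-0.21, adjusted p = 0.0951). A second, dimmer Cps1 probe set was lower by more, at -0.63 ± 0.08 SE (adjusted p = 2.19e-07) and -0.42 ± 0.08 SE (adjusted p = 0.00138).

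Asl, argininosuccinate lyase, releases arginine and fumarate. Asl values (lowest, median, highest) were 10.51, 10.63 and 10.79 in vehicle, 10.59, 10.86 and 11.08 at 0.0485 mg/kg, and 10.64, 10.75 and 10.84 at 0.485 mg/kg. Above those doses they were 10.62, 10.70 and 10.80 at 4.85 mg/kg, 10.21, 10.57 and 10.74 at 48.5 mg/kg, and 10.12, 10.28 and 10.44 at 485 mg/kg. The 48.5 mg/kg group overlapped with vehicle, and the 485 mg/kg animals were all lower. Asl fell at 485 mg/kg (-0.35 ± 0.08 SE, adjusted p = 0.000719) and did not pass at 48.5 mg/kg (-0.08 ± 0.08 SE, adjusted p = 0.698). Its other probe set gave -0.28 ± 0.08 SE (adjusted p = 0.00997) at 485 mg/kg.

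Otc, ornithine transcarbamylase, makes citrulline in the mitochondrion. Otc ran, as lowest, median and highest, at 12.27, 12.49 and 12.50 in vehicle, 12.33, 12.44 and 12.51 at 0.0485 mg/kg, and 12.22, 12.34 and 12.49 at 0.485 mg/kg. For the higher doses the values were 12.41, 12.52 and 12.55 at 4.85 mg/kg, 12.26, 12.33 and 12.42 at 48.5 mg/kg, and 12.11, 12.31 and 12.41 at 485 mg/kg. Every dose overlapped with vehicle. The change was -0.15 ± 0.05 SE (adjusted p = 0.0533) at 485 mg/kg, and Otc was called in 11 of 45 alternatives. Adjusted p was 0.0141 after quantile normalization, 0.0174 without vehicle replicate 4, 0.0296 without vehicle replicate 5 and 0.0262 without 485 mg/kg replicate 1.

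Nags makes N-acetylglutamate, the activator that Cps1 requires. The lowest, median and highest Nags values were 9.69, 9.83 and 9.94 in vehicle, 9.72, 9.89 and 10.14 at 0.0485 mg/kg, and 9.62, 9.78 and 9.88 at 0.485 mg/kg. They stood at 9.62, 9.95 and 10.15 at 4.85 mg/kg, 9.67, 9.84 and 10.02 at 48.5 mg/kg, and 9.52, 9.64 and 9.75 at 485 mg/kg. Nags did not pass at 485 mg/kg (-0.19 ± 0.07 SE, adjusted p = 0.0885), where its range overlapped with vehicle, though adjusted p was 0.0277 after quantile normalization.

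Arg1, arginase, splits arginine into urea and ornithine. For Arg1 the lowest, median and highest values were 13.09, 13.28 and 13.52 in vehicle, 13.28, 13.36 and 13.57 at 0.0485 mg/kg, and 13.14, 13.37 and 13.51 at 0.485 mg/kg. At the other doses they were 13.02, 13.28 and 13.37 at 4.85 mg/kg, 13.10, 13.29 and 13.40 at 48.5 mg/kg, and 13.35, 13.52 and 13.68 at 485 mg/kg. The ranges overlapped at every dose. Its change at 485 mg/kg was positive and not called (0.21 ± 0.08 SE, adjusted p = 0.0686), and adjusted p was 0.0286 without vehicle replicate 4, 0.0312 without vehicle replicate 6 and 0.0397 without 485 mg/kg replicate 4.

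All 4 members that handle glutamine, glutamate and ornithine fell at 485 mg/kg, and 3 of them at 48.5 mg/kg. Oat, ornithine aminotransferase, moves the ornithine amino group to 2-oxoglutarate and is enriched beside the central vein. Its values, lowest, median and highest, were 10.23, 10.97 and 11.54 in vehicle, 9.76, 10.66 and 10.78 at 0.0485 mg/kg, and 10.66, 10.91 and 11.35 at 0.485 mg/kg. They were then 10.65, 10.84 and 11.32 at 4.85 mg/kg, 9.41, 9.83 and 10.30 at 48.5 mg/kg, and 8.75, 9.05 and 9.70 at 485 mg/kg. One animal at 0.0485 mg/kg stood below the rest of that group, the 48.5 mg/kg animals overlapped slightly with vehicle, and all at 485 mg/kg were lower. Oat fell by 1.80 on the log2 scale at 485 mg/kg (SE 0.19, adjusted p = 3.46e-09) and by 1.09 at 48.5 mg/kg (SE 0.19, adjusted p = 0.000367).

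Glul, glutamine synthetase, captures ammonia as glutamine in the layer around the central vein. Glul had lowest, median and highest values of 11.55, 11.80 and 11.91 in vehicle, 11.44, 11.76 and 11.91 at 0.0485 mg/kg, and 11.70, 11.73 and 11.94 at 0.485 mg/kg. Higher up it had 11.37, 11.70 and 11.92 at 4.85 mg/kg, 11.04, 11.44 and 11.62 at 48.5 mg/kg, and 10.15, 10.53 and 10.78 at 485 mg/kg. All animals at 485 mg/kg lay below both the vehicle and the 48.5 mg/kg groups, and the 48.5 mg/kg group overlapped with vehicle. The fall was -1.28 ± 0.11 SE (adjusted p = 2.66e-11) at 485 mg/kg. It was -0.43 ± 0.11 SE (adjusted p = 0.0197) at 48.5 mg/kg, a call that was lost without vehicle replicate 1 (-0.40, adjusted p = 0.0523), without 48.5 mg/kg replicate 3 (-0.36, adjusted p = 0.0664) or without 48.5 mg/kg replicate 4 (-0.38, adjusted p = 0.0506). The other 2 Glul probe sets had changes of -0.99 ± 0.11 and -0.92 ± 0.13 SE at 485 mg/kg (adjusted p = 4.73e-09 and 2.9e-06). At 48.5 mg/kg their changes were -0.36 ± 0.11 SE (adjusted p = 0.0498) and -0.25 ± 0.13 SE (adjusted p = 0.371, not called).

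Gls2, the liver glutaminase, releases ammonia from glutamine beside the portal vein and thus catalyses the opposite step to Glul. The lowest, median and highest values of Gls2 came to 10.60, 10.91 and 11.12 in vehicle, 10.65, 10.88 and 11.03 at 0.0485 mg/kg, and 10.38, 10.73 and 10.93 at 0.485 mg/kg. At the next doses they came to 10.60, 10.79 and 11.22 at 4.85 mg/kg, 10.08, 10.19 and 10.52 at 48.5 mg/kg, and 9.82, 10.12 and 10.22 at 485 mg/kg. The groups at 48.5 and 485 mg/kg each lay wholly below vehicle. Gls2 fell at 485 mg/kg (-0.82 ± 0.10 SE, adjusted p = 6.21e-08) and at 48.5 mg/kg (-0.62 ± 0.10 SE, adjusted p = 9.02e-05). Glud1, glutamate dehydrogenase, fell at 485 mg/kg (-0.30 ± 0.04 SE, adjusted p = 5.32e-06). Its second, dimmer probe set was lower by more there (-0.43 ± 0.05 SE, adjusted p = 2.07e-07). At 48.5 mg/kg Glud1 was -0.13 ± 0.04 SE (adjusted p = 0.113), where its second probe set passed (-0.21 ± 0.05 SE, adjusted p = 0.02).

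Of the 4 serine and histidine members, 2 fell (Sds and Hal) and 1 rose (Ftcd) at 485 mg/kg. Sds, serine dehydratase, turns serine into pyruvate and is a periportal enzyme induced by glucagon and glucocorticoids. Sds gave lowest, median and highest values of 5.90, 7.56 and 8.39 in vehicle, 6.03, 6.84 and 7.82 at 0.0485 mg/kg, and 6.23, 6.41 and 7.38 at 0.485 mg/kg. It gave 5.91, 6.41 and 7.22 at 4.85 mg/kg, 5.82, 6.08 and 6.41 at 48.5 mg/kg, and 5.82, 6.04 and 6.66 at 485 mg/kg at the higher doses. The vehicle animals were the most spread out of the groups (SD 0.91), and every dose overlapped with them. The group means were 7.30, 6.83, 6.61, 6.46, 6.13 and 6.19 from vehicle to 485 mg/kg, and several animals lay near the array medians, where an array may understate a change. Sds fell at 485 mg/kg (-1.11 ± 0.30 SE, adjusted p = 0.00839) and at 48.5 mg/kg (-1.16 ± 0.30 SE, adjusted p = 0.0221). The 48.5 mg/kg call was lost without vehicle replicate 1 (-1.06, adjusted p = 0.0658), 2 (-1.07, adjusted p = 0.0599) or 6 (-0.94, adjusted p = 0.0727) and without 48.5 mg/kg replicate 5 (-1.10, adjusted p = 0.0594), and on the 12 arrays of the groups compared (-1.16, adjusted p = 0.071).

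Hal, histidase, opens histidine breakdown by removing its amino group. Across groups its lowest, median and highest values were 9.57, 9.79 and 10.09 in vehicle, 9.70, 9.99 and 10.17 at 0.0485 mg/kg, and 9.60, 9.70 and 10.05 at 0.485 mg/kg. Above them they were 9.72, 9.92 and 10.06 at 4.85 mg/kg, 9.13, 9.34 and 9.63 at 48.5 mg/kg, and 7.85, 8.98 and 9.27 at 485 mg/kg. One animal at 485 mg/kg (7.85) was well under the other 5 of its group (8.93 to 9.27), and all 6 lay below vehicle. Hal fell at 485 mg/kg (-0.95 ± 0.15 SE, adjusted p = 5.96e-06) and did not pass at 48.5 mg/kg (-0.42 ± 0.15 SE, adjusted p = 0.11). Without that animal the fall at 485 mg/kg was -0.76 (adjusted p = 1.9e-06). Uroc1, urocanase, the following enzyme of the route, stood at 0.00 ± 0.09 SE at 485 mg/kg and -0.15 ± 0.09 SE at 48.5 mg/kg. Ftcd, which passes the histidine-derived formimino group to folate, rose at 485 mg/kg (0.43 ± 0.07 SE, adjusted p = 1.29e-05), with all 6 animals above vehicle, and was 0.16 ± 0.07 SE at 48.5 mg/kg (adjusted p = 0.253).

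Of the 5 tyrosine members, 4 did not pass at 485 mg/kg. Hpd, 4-hydroxyphenylpyruvate dioxygenase, rose at 485 mg/kg (0.26 ± 0.07 SE, adjusted p = 0.0042) and at 48.5 mg/kg (0.23 ± 0.07 SE, adjusted p = 0.0396). Its values were 13.41, 13.52 and 13.61 (lowest, median, highest) at 485 mg/kg and 13.34, 13.50 and 13.64 at 48.5 mg/kg, against 13.01, 13.35 and 13.38 in vehicle livers. The 48.5 mg/kg call was lost after quantile normalization (0.20, adjusted p = 0.0877), on the 12 arrays of the groups compared (0.23, adjusted p = 0.181) and without any 1 of 6 single arrays, vehicle replicates 4 and 5 and 48.5 mg/kg replicates 1, 2, 3 and 6, with changes of 0.18 to 0.23 and adjusted p up to 0.117. Tat, tyrosine aminotransferase, the hormone-induced first step, had a change of -0.54 ± 0.32 SE at 485 mg/kg (adjusted p = 0.314), within the large spread between animals. Hgd, Gstz1 and Fah, which carry homogentisate to fumarate and acetoacetate, had changes of 0.07 ± 0.08, -0.07 ± 0.06 and 0.05 ± 0.05 SE.

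In the tryptophan route 2 members fell, 1 rose and 1 did not pass at 485 mg/kg, and 0 of 4 were called at 48.5 mg/kg. Tdo2, which opens the indole ring, had a change of 0.15 ± 0.08 SE (adjusted p = 0.257). Kynu, kynureninase, cleaves kynurenine and its 3-hydroxy form. Kynu values were, lowest, median and highest, 11.63, 11.90 and 12.07 in vehicle, 11.47, 11.75 and 12.44 at 0.0485 mg/kg, and 11.30, 11.90 and 12.05 at 0.485 mg/kg. The remaining doses had 11.85, 11.98 and 12.10 at 4.85 mg/kg, 11.71, 11.77 and 12.12 at 48.5 mg/kg, and 11.11, 11.40 and 11.53 at 485 mg/kg. The 485 mg/kg animals were all below vehicle and below 48.5 mg/kg, and the other groups overlapped. Kynu fell at 485 mg/kg (-0.49 ± 0.12 SE, adjusted p = 0.0026), as did Kmo, kynurenine hydroxylase (-0.32 ± 0.09 SE, adjusted p = 0.011). Haao, which acts after both on the way to NAD, rose slightly (0.19 ± 0.06 SE, adjusted p = 0.0199), a call lost after quantile normalization (0.11, adjusted p = 0.219).

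Of the members grouped here as transaminases (Agxt, Got1, Got2 and Gpt, without Oat and Tat), Agxt changed most. Agxt, alanine-glyoxylate aminotransferase, removes glyoxylate, the precursor of oxalate. Its lowest, median and highest values were, in order, 10.37, 10.51 and 10.66 in vehicle, 10.55, 10.69 and 11.01 at 0.0485 mg/kg, and 10.35, 10.69 and 10.86 at 0.485 mg/kg. Then came 10.27, 10.63 and 10.90 at 4.85 mg/kg, 10.09, 10.40 and 10.57 at 48.5 mg/kg, and 9.28, 9.70 and 10.11 at 485 mg/kg. The 485 mg/kg animals were all below vehicle, and the 48.5 mg/kg group overlapped with it. The fall at 485 mg/kg was -0.83 ± 0.11 SE (adjusted p = 3.13e-07), and the change at 48.5 mg/kg was -0.14 ± 0.11 SE (adjusted p = 0.582). Got2, the mitochondrial aspartate aminotransferase, fell by 0.15 on the log2 scale at 485 mg/kg (SE 0.04, adjusted p = 0.0138), and this call was lost on the 12 arrays of the 2 groups alone (-0.15, adjusted p = 0.0661) and when its probe sets were averaged (-0.10, adjusted p = 0.0989). The cytosolic Got1 (-0.31 ± 0.11 SE, adjusted p = 0.0652) and the alanine aminotransferase Gpt (0.27 ± 0.19 SE, adjusted p = 0.41) did not pass. Prodh, proline dehydrogenase, fell at 485 mg/kg (-0.41 ± 0.11 SE, adjusted p = 0.0096). Its second, dimmer probe set was not called there (-0.07 ± 0.08 SE, adjusted p = 0.683).

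Of the 8 methionine, betaine and transsulfuration members, 4 fell at 485 mg/kg and 1, Gnmt, at 48.5 mg/kg. Gnmt, glycine N-methyltransferase, disposes of surplus S-adenosylmethionine by methylating glycine. Gnmt had lowest, median and highest levels of 11.79, 12.25 and 12.46 in vehicle, 12.05, 12.23 and 12.47 at 0.0485 mg/kg, and 12.01, 12.18 and 12.59 at 0.485 mg/kg. Further levels were 11.91, 12.24 and 12.48 at 4.85 mg/kg, 11.25, 11.60 and 11.80 at 48.5 mg/kg, and 10.50, 10.74 and 11.17 at 485 mg/kg. The groups from vehicle to 4.85 mg/kg overlapped, 48.5 mg/kg touched the lowest vehicle animal, and 485 mg/kg lay below all others. Gnmt fell at 485 mg/kg (-1.41 ± 0.12 SE, adjusted p = 2.01e-11) and at 48.5 mg/kg (-0.64 ± 0.12 SE, adjusted p = 0.000853). Cth, cystathionine gamma-lyase, makes cysteine from cystathionine. For Cth these values were 13.18, 13.23 and 13.38 in vehicle, 13.10, 13.29 and 13.49 at 0.0485 mg/kg, and 13.19, 13.28 and 13.41 at 0.485 mg/kg. They continued with 13.22, 13.39 and 13.46 at 4.85 mg/kg, 12.84, 12.96 and 13.25 at 48.5 mg/kg, and 11.92, 12.67 and 13.07 at 485 mg/kg. At 485 mg/kg the animals were all below vehicle but spread over more than 1 log2 unit. Cth fell at 485 mg/kg (-0.70 ± 0.11 SE, adjusted p = 1.07e-05) and was -0.25 ± 0.11 SE at 48.5 mg/kg (adjusted p = 0.259).

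Bhmt, which remethylates homocysteine with betaine, fell at 485 mg/kg (-0.46 ± 0.14 SE, adjusted p = 0.0259), and Mat1a, which makes S-adenosylmethionine, fell slightly (-0.19 ± 0.07 SE, adjusted p = 0.0476). The Bhmt call was lost without vehicle replicate 1 (-0.38, adjusted p = 0.0851), 3 (-0.41, adjusted p = 0.0677) or 6 (-0.38, adjusted p = 0.0828), or 485 mg/kg replicate 2 (-0.42, adjusted p = 0.0633) or 5 (-0.41, adjusted p = 0.0634), and on 12 arrays (-0.46, adjusted p = 0.0573). The Mat1a call was lost under 24 of 45 alternatives, 21 of them with a single array left out. Cbs, which feeds Cth with cystathionine, had a change of 0.20 ± 0.09 SE (adjusted p = 0.171), and Ahcy, which splits S-adenosylhomocysteine, one of -0.08 ± 0.04 SE (adjusted p = 0.253). Dmgdh and Sardh, which oxidize dimethylglycine and sarcosine, the product of Gnmt, stood at -0.16 ± 0.08 and 0.15 ± 0.07 SE and were not called.

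Cdo1, cysteine dioxygenase, which commits cysteine to taurine and sulfate, fell at 485 mg/kg (-0.44 ± 0.05 SE, adjusted p = 8.19e-08) and at 48.5 mg/kg (-0.29 ± 0.05 SE, adjusted p = 0.000981). Its values were 12.87, 13.07 and 13.18 (lowest, median, highest) at 485 mg/kg and 13.18, 13.20 and 13.22 at 48.5 mg/kg, against 13.36, 13.50 and 13.59 in vehicle livers, with no overlap between either dose and vehicle. Csad, the decarboxylase of the same route, had a change of 0.23 ± 0.08 SE at 485 mg/kg (adjusted p = 0.0619).

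Gldc, the decarboxylase of the mitochondrial glycine cleavage system, fell. Its lowest, median and highest values amounted to 8.28, 8.46 and 8.56 in vehicle, 8.38, 8.51 and 8.73 at 0.0485 mg/kg, and 8.46, 8.59 and 8.76 at 0.485 mg/kg. They amounted to 8.34, 8.59 and 8.80 at 4.85 mg/kg, 7.81, 8.32 and 8.53 at 48.5 mg/kg, and 7.07, 7.60 and 8.24 at 485 mg/kg at the upper doses. The 485 mg/kg animals were all below vehicle, over a range of more than 1 log2 unit, and those at 48.5 mg/kg overlapped. The fall was -0.81 ± 0.12 SE (adjusted p = 3.58e-06) at 485 mg/kg, and the change was -0.19 ± 0.12 SE at 48.5 mg/kg (adjusted p = 0.484). Dimmer Gldc probe sets were not called at 485 mg/kg, with -0.51 ± 0.19 SE (adjusted p = 0.0608) and -0.14 ± 0.09 SE (adjusted p = 0.366).

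Aass, the bifunctional enzyme that starts lysine breakdown, was the member that rose most. Aass values at the lower doses, lowest, median and highest, were 10.48, 10.68 and 11.18 in vehicle, 10.43, 10.96 and 11.13 at 0.0485 mg/kg, and 10.46, 10.82 and 11.03 at 0.485 mg/kg. At the higher doses they were 10.94, 11.05 and 11.23 at 4.85 mg/kg, 10.80, 11.18 and 11.42 at 48.5 mg/kg, and 11.31, 11.56 and 11.66 at 485 mg/kg. All 6 animals at 485 mg/kg were above vehicle and those at 48.5 mg/kg overlapped with it. Aass rose 1.70-fold at 485 mg/kg (0.76 ± 0.12 SE, adjusted p = 5.56e-06) and was 0.39 ± 0.12 SE at 48.5 mg/kg (adjusted p = 0.0531). Bckdha and Bckdhb, the E1 subunits of the branched-chain ketoacid dehydrogenase, had changes of 0.18 ± 0.07 and 0.09 ± 0.07 SE at 485 mg/kg and were not called.

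**Figure D3:**
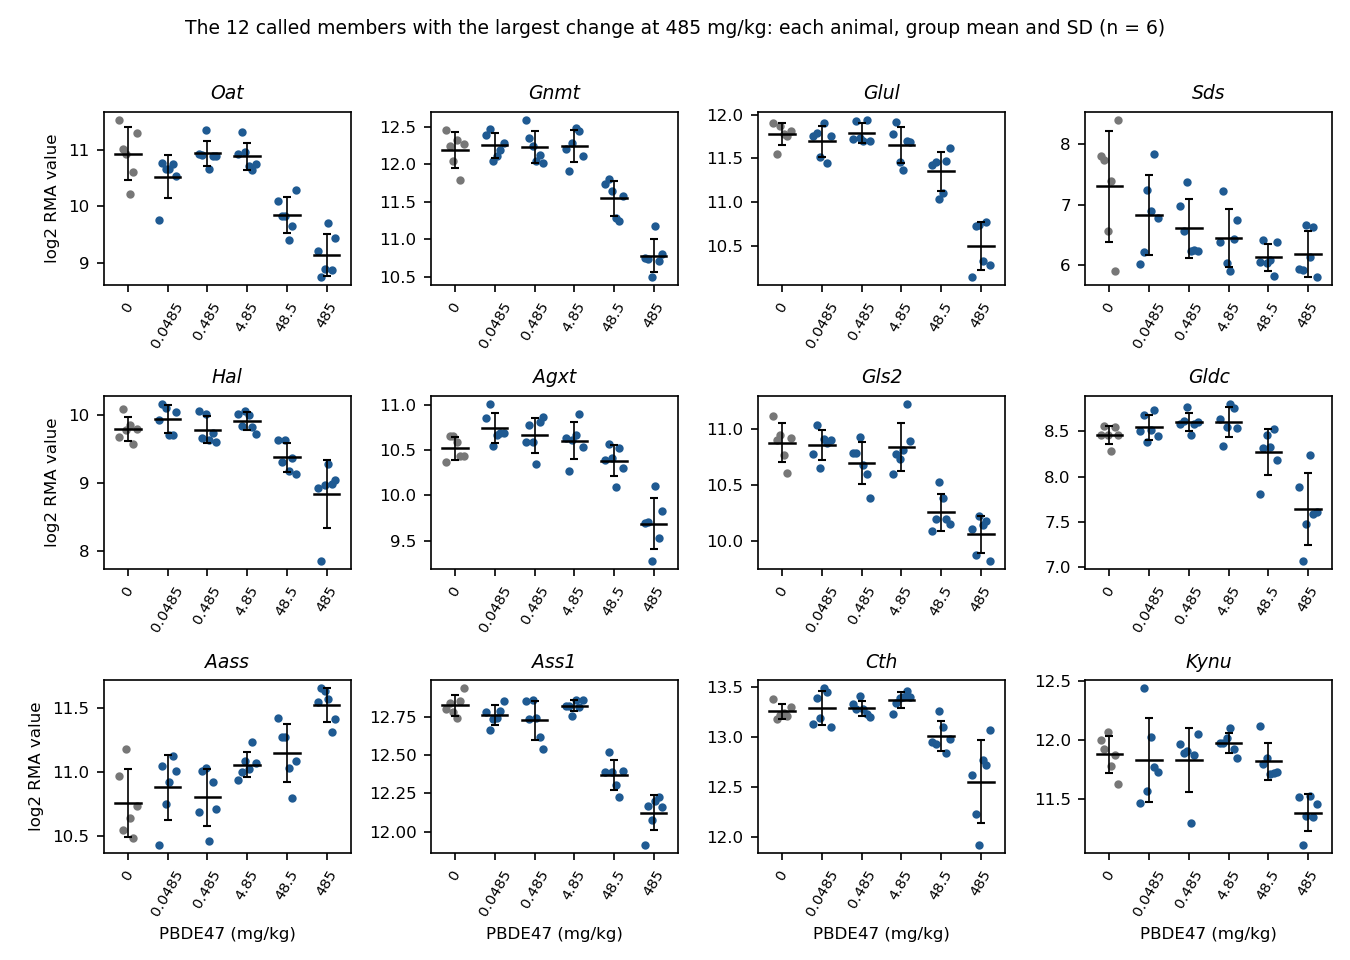
Log2 RMA value of each animal (points), with the group mean (long bar) and SD (error bar, n = 6), for the 12 called members with the largest change at 485 mg/kg, against dose in mg/kg from vehicle (0, grey) to 485. Axes differ between panels. For 10 members the 485 mg/kg points lie wholly below vehicle, for Aass wholly above, and for Sds the groups overlap.

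The periportal members Sds, Hal and Gls2 and the pericentral members Glul and Oat were set side by side, as changes from the vehicle mean, because levels of different probe sets cannot be compared. At 48.5 mg/kg both means were lower by nearly the same amount, at -0.74 ± 0.09 (SD) for the periportal and -0.76 ± 0.25 for the pericentral members. The genes within each side differed: -1.16 for Sds, -0.62 for Gls2 and -0.42 for Hal (not called), and -1.09 for Oat and -0.43 for Glul. Sds thus weighed most in the periportal mean, and it lay near the array medians at both high doses, where an array may understate a change. The means were not computed without Sds. At 485 mg/kg the means were -0.96 ± 0.28 and -1.54 ± 0.12, the pericentral mean being the lower. The periportal minus pericentral difference per animal was 0.58 ± 0.26 at 485 mg/kg (0.18 to 0.85), against 0.00 ± 0.34 in vehicle livers (-0.45 to 0.37), and it was 0.02 ± 0.27 at 48.5 mg/kg. Some vehicle animals thus lay inside the range seen at 485 mg/kg. At the lower doses, where no member was called, the difference also moved. It was 0.13 ± 0.20 at 0.0485 mg/kg (-0.11 to 0.41), -0.30 ± 0.22 at 0.485 mg/kg (-0.53 to -0.01) and -0.17 ± 0.14 at 4.85 mg/kg (-0.32 to 0.02). No test was made of these means over members. The difference depended on its genes: at 485 mg/kg it was 0.32 with Glul alone and 0.83 with Oat alone on the pericentral side, and 1.03 with Uroc1, Cps1, Ass1, Asl and Arg1 added to the periportal side. At 48.5 mg/kg the same choices gave -0.31, 0.35 and 0.37.

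**Figure D4:**
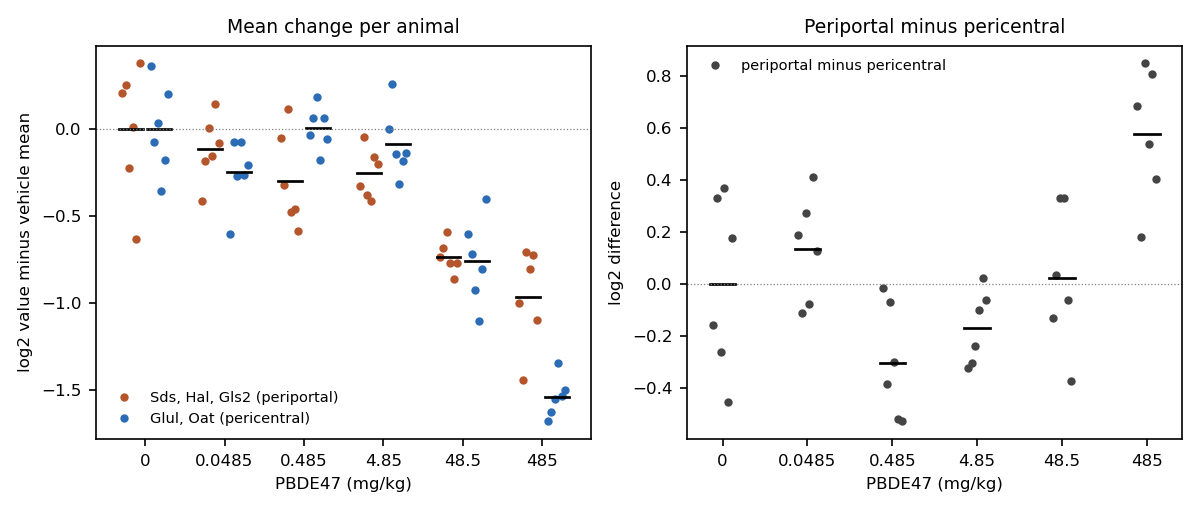
Left, the mean log2 value of Sds, Hal and Gls2 (orange) and of Glul and Oat (blue) in each animal, minus the vehicle mean, against dose in mg/kg. Right, the difference between the 2 sides per animal. Bars are group means (n = 6). At 485 mg/kg the blue points lie between -1.68 and -1.34 and the orange points between -1.44 and -0.70.

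Zonal markers outside these routes gave a mixed picture. As background for the marker counts at 485 mg/kg, 7.22% of all and 18.4% of bright probe sets fell, and 7.81% and 25.4% rose. The lists are short, and no test was made of the counts. Of 6 measured periportal markers 3 fell and 0 rose at 485 mg/kg, with a list median of -0.21, and 0 were called at 48.5 mg/kg. The falls were those of Pck1, the gluconeogenic enzyme PEPCK (-1.36 ± 0.23 SE, adjusted p = 3.19e-05), Hsd17b13 (-0.38 ± 0.09 SE, adjusted p = 0.00136) and Fbp1, fructose bisphosphatase (-0.28 ± 0.06 SE, adjusted p = 0.00172). The list mean per animal was 11.16 to 11.61 at 485 mg/kg and 11.69 to 11.82 in vehicle livers. Of 8 measured pericentral markers 1 fell and 2 rose at 485 mg/kg, with a list median of -0.14, and 0 were called at 48.5 mg/kg. Gulo fell (-0.33 ± 0.05 SE, adjusted p = 1.94e-05), with all animals below vehicle, and Cyp1a2, an AhR target (0.30 ± 0.08 SE, adjusted p = 0.00475), and Cyp27a1 (0.23 ± 0.08 SE, adjusted p = 0.0389) rose. The list means were 9.02 to 9.32 at 485 mg/kg and 9.21 to 9.34 in vehicle livers. Among general hepatocyte markers 5 of 8 fell at 485 mg/kg (changes down to -0.31). Among markers of other cell types, those that fell at 485 mg/kg were 5 of 8 for Kupffer cells and macrophages (list means 8.30 to 8.84, against 8.93 to 9.16 in vehicle livers), 3 of 3 for erythroid cells (7.24 to 7.83, against 8.03 to 8.54), 2 of 6 for sinusoidal endothelium, 2 of 8 for T and NK cells and 1 of 4 for pancreas, and 0 of these rose. In the cholangiocyte list 1 of 5 rose (Epcam, 0.60 ± 0.10 SE, adjusted p = 3.02e-05), in the stellate list 1 of 7 (Rgs5, 0.81 ± 0.15 SE, adjusted p = 0.000177), both with all animals above vehicle, and 0 fell in either. Of 3 skeletal muscle markers 0 were called. The part of these shifts in the members' values was not tested.

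The direct comparison of 485 with 48.5 mg/kg asked which members changed further at the top dose. Here 11 members fell and 1 rose, against 2.31% and 2.55% of all probe sets (4.86% called in all). Of the bright probe sets 8.6% fell and 11.9% rose (20.5% called), beside 28.6% of members called. The lowest adjusted p belonged to Glul (-0.85 ± 0.11 SE, adjusted p = 1.54e-06), Gnmt (-0.77 ± 0.12 SE, adjusted p = 3.68e-05) and Agxt (-0.69 ± 0.11 SE, adjusted p = 4.72e-05), all lower, and Ftcd rose (0.28 ± 0.07 SE, adjusted p = 0.0112). Gldc (-0.62 ± 0.12 SE, adjusted p = 0.000781), Cth (-0.45 ± 0.11 SE, adjusted p = 0.00909) and Ass1 (-0.25 ± 0.06 SE, adjusted p = 0.00498) were also lower. Sds (0.05 ± 0.30 SE), Gls2 (-0.20 ± 0.10), Cdo1 (-0.15 ± 0.05) and Cps1 (-0.09 ± 0.05), which were already called at 48.5 mg/kg, were not called in this step, with adjusted p of 0.965, 0.318, 0.0974 and 0.415.

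On the 12 arrays of these groups alone the calls of Glul, Gnmt, Agxt, Oat and Kynu remained. Those of Gldc (-0.62, adjusted p = 0.0522), Ass1 (-0.25, adjusted p = 0.0619), Ftcd (0.28, adjusted p = 0.0841), Cth (-0.45, adjusted p = 0.138), Asl (-0.28, adjusted p = 0.101), Hal (-0.53, adjusted p = 0.16) and Glud1 (-0.17, adjusted p = 0.183) were lost. Leaving out single arrays ended the calls of Oat, Hal, Kynu, Asl and Glud1. For Oat (-0.71 ± 0.19 SE, adjusted p = 0.0181) the call was lost without 48.5 mg/kg replicate 6 (-0.62, adjusted p = 0.0612) or 485 mg/kg replicate 2 (-0.63, adjusted p = 0.0609) or 3 (-0.66, adjusted p = 0.0549). For Hal (-0.53 ± 0.15 SE, adjusted p = 0.0225) it was lost without 48.5 mg/kg replicate 1 (-0.48, adjusted p = 0.0607) or 3 (-0.48, adjusted p = 0.0632), and without 485 mg/kg replicate 2 the change was -0.33 (adjusted p = 0.0699). For Kynu (-0.43 ± 0.12 SE, adjusted p = 0.0223) it was lost without 48.5 mg/kg replicate 1 (-0.38, adjusted p = 0.0695) or 485 mg/kg replicate 2 (-0.38, adjusted p = 0.0747). For Asl (-0.28 ± 0.08 SE, adjusted p = 0.021) and Glud1 (-0.17 ± 0.04 SE, adjusted p = 0.0198) it was lost without any 1 of 4 arrays each, which were 48.5 mg/kg replicates 1 and 2 for Asl and 1 and 5 for Glud1, with 485 mg/kg replicates 2 and 3 for both (adjusted p up to 0.0744 and 0.0702). Without 485 mg/kg replicate 2, 8 members were called in this step.

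Over the 5 doses together the moderated F test called 27 of 42 members, against 13.0% of all probe sets. The share of bright probe sets was not computed for the F test. At the 3 lowest doses the changes stayed between -0.84 (Sds) and 0.33 (Gpt) at 4.85 mg/kg, -0.69 (Sds) and 0.17 (Tat) at 0.485 mg/kg, and -0.46 (Sds) and 0.22 (Agxt) at 0.0485 mg/kg. Sds was the lowest member at each of them, and its adjusted p was 0.577, 1 and 1 at 4.85, 0.485 and 0.0485 mg/kg. These comparisons share their vehicle animals, so they are not independent of each other.

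Further genes of the same pathways, 75 of 83 listed ones measured, were called in both directions. At 485 mg/kg 17 rose and 14 fell, with a median change of 0.00, and at 48.5 mg/kg 3 rose and 4 fell. These are 22.7% and 18.7% at 485 mg/kg, near the 25.4% and 18.4% of bright probe sets and above the 7.81% and 7.22% of all probe sets. The shares at 48.5 mg/kg were 4.0% and 5.3%, beside 8.3% and 3.8% of bright and 2.57% and 0.821% of all probe sets. The largest rises at 485 mg/kg were those of Kyat1, a kynurenine aminotransferase (0.86 ± 0.07 SE, adjusted p = 5.81e-12), Hibch, an enzyme of valine breakdown (0.72 ± 0.07 SE, adjusted p = 5.21e-10), and Bcat2, the mitochondrial branched-chain aminotransferase (0.70 ± 0.09 SE, adjusted p = 7.68e-07). Falls were largest for the taurine and GABA transporter Slc6a13 (-0.64 ± 0.11 SE, adjusted p = 5.54e-05), Prodh2, which oxidizes hydroxyproline (-0.63 ± 0.14 SE, adjusted p = 0.00122), and Acadsb, an acyl-CoA dehydrogenase of isoleucine breakdown (-0.61 ± 0.09 SE, adjusted p = 7.1e-06). At 48.5 mg/kg Hibch (0.42 ± 0.07 SE, adjusted p = 0.000207), Kyat1 (0.33 ± 0.07 SE, adjusted p = 0.00373) and Amt, the aminomethyltransferase of the glycine cleavage system (0.21 ± 0.06 SE, adjusted p = 0.033), rose. Slc6a13 (-0.55 ± 0.11 SE, adjusted p = 0.00237), Acadsb (-0.48 ± 0.09 SE, adjusted p = 0.00171) and the glutamine transporter Slc38a3 (-0.23 ± 0.06 SE, adjusted p = 0.0281) fell most.

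By route, 4 of 8 amino acid transporters and 3 of 6 genes around the urea cycle fell at 485 mg/kg and 0 rose, where 7.22% of all and 18.4% of bright probe sets fell. In the branched-chain and propionate group 6 of 19 rose and 2 fell, and in the histidine and folate group 3 of 5 rose and 0 fell, where 7.81% of all and 25.4% of bright probe sets rose. With 5 to 19 genes a route, these counts are descriptions with no test. In the glycine, serine and threonine group, Amt rose at 485 mg/kg (0.49 ± 0.06 SE, adjusted p = 3.37e-08). Gcsh, also of the glycine cleavage system, did not pass (0.09 ± 0.05 SE). In the tryptophan group 2 of 6 rose and 1 fell.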

How the data were processed

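Livers of 36 rats were profiled on 36 single-colour Affymetrix arrays. The deposited values are log2 intensities that the authors made with RMA in the affy package, per the submitters' processing notes, whose versions are not given in the sources used here. RMA had already corrected the background, normalized between arrays and summarized the probes, which compresses changes of dim probe sets, and no detection call was made. Of 31099 probe sets, 57 controls were left out. Of the 31042 tested, 20826 were assigned to 1 gene by the platform annotation, 436 to several and 9780 to none, and 20758 matched RefSeq (GRCr8) by gene identifier.

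A linear model over the 6 groups was fitted to all 36 arrays with limma 3.58.1 in R 4.3.3 (eBayes, 30 residual degrees of freedom), with adjusted p from Benjamini-Hochberg over the 31042 probe sets and a threshold of 0.05. The steps were tested on simulated data. The members and the gene lists were chosen with earlier results of these data known. Values of every group were given for the 6 urea cycle members, the zonal members and the 12 called members with the largest change at 485 mg/kg, and the rest by change and count. Of the other pathway genes, the 3 largest rises and falls at 48.5 and 485 mg/kg were named. Cdo1 and Hpd values were added after they were seen. Alternatives covered the replicate block, normalization, centring, a filter on dim probe sets, the variance prior, array weights, the arrays in the fit, averaging over probe sets of 1 gene, and leaving out single arrays.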

Additional observations from a re-analysis of the deposited data

Results flagged for a closer look

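Of 102 sets of 6 animals examined (17 members in 6 groups), 7 held 1 animal far from the other 5, by a gap to its nearest neighbour past Dixon's critical value. Chance flags about 1 in 20 such groups. At 485 mg/kg, Hal in replicate 2 was 7.85, with the others at 8.93 to 9.27. At 48.5 mg/kg, Asl in replicate 4 was 10.21 (others 10.54 to 10.74) and Kynu in replicate 1 was 12.12 (others 11.71 to 11.85). At 4.85 mg/kg, Otc in replicate 1 was 12.41 (others 12.51 to 12.55). At 0.485 mg/kg, Kynu in replicate 4 was 11.30 (others 11.87 to 12.05), and at 0.0485 mg/kg, Oat in replicate 1 was 9.76 (others 10.55 to 10.78). In vehicle livers, Gldc in replicate 4 was 8.28 (others 8.46 to 8.56).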

How the results depend on the processing

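With each array left out in turn, 22 to 26 members were called at 485 mg/kg, 7 to 10 at 48.5 mg/kg, 24 to 28 by the F test and 8 to 14 between 485 and 48.5 mg/kg, the lowest of these without 485 mg/kg replicate 2. On the 12 arrays of the groups compared, 5 members were called between 485 and 48.5 mg/kg, where fewer arrays estimate the spread. Limma called 0 members at the 3 lowest doses under every alternative run. The replicate numbers did not pair the animals (mean correlation of same-numbered deviations 0.019), and with the replicate block 25, 9, 13 and 26 members were called at 485, at 48.5, between them and by the F test. The periportal minus pericentral difference at 485 mg/kg ran from 0.486 to 0.656 with an array left out, and was 1.03 with 5 more periportal genes, 0.318 with Glul alone and 0.834 with Oat alone. At 48.5 mg/kg it ran from -0.07 to 0.10 and was 0.367, -0.309 and 0.351 under the same choices. Over 48 gene and comparison pairs, 73 of 2160 alternative values lost the call, 18 gained it and 0 reversed. By pair, 17 of the 48 lost the call at least once. Many of the 2160 values could not reverse, because leaving out an array of a group outside the comparison does not alter the change. The pairs were the called ones and, of those not called, only Otc, Nags and Arg1 at 485 mg/kg. Gains could therefore come from Otc, Nags and Arg1 alone, and other members close to the threshold were not followed. The number of arrays, and signal near the array median for Sds, limits the precision.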
